A study of Homo sapiens with 11 samples.

Results

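The 7 little-studied genes BEST1, AKNA, KLHDC7B, COPZ2, DHRS2, PJVK and CYP46A1 had fewer transcripts in each of 3 knockdowns than in the control, by summed counts between 2.36-fold lower (CYP46A1 in siUBE2M) and 50.9-fold lower (KLHDC7B in siURM1). These 7 genes, of 58735 listed and 18368 tested, were chosen by name on their measured falls in the knockdown libraries, so their differences from the control are given as a description, without a test. HEK293T, a human embryonic kidney cell line that carries the SV40 large T antigen, was transfected with siRNA and its polyadenylated RNA was sequenced after 48 h. The groups were control (n = 3), siNAE1 at 50 nM (n = 3), siUBE2M at 70 nM (n = 3) and siURM1 at 60 nM (n = 2). The dose differed with the target, so dose and target cannot be told apart. For the control the sources used here give no dose. GEO's labels name the control a control siRNA, and the study's methods list a non-targeting siRNA as negative control, while a supplement writes HKWT for these libraries; the difference in name was not resolved. The replicates are labelled as biological replicates of one cell line, and the study states in general terms that its key experiments were repeated independently. For these libraries the sources used here do not say whether each came from a separate culture or transfection, and if not, the p-values measure only the spread between libraries, which may be technical.

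NAE1 is the regulatory subunit of the enzyme that activates NEDD8, a ubiquitin-like protein, and UBE2M is a conjugating enzyme that passes NEDD8 on to cullins, the scaffolds of many ubiquitin ligases. URM1 is a ubiquitin-like protein that also carries sulfur for the thiolation of tRNA. The study reports that the NAE1-containing enzyme and UBE2M also activate URM1 and pass it on to proteins. The 7 genes belong to unrelated families: a chloride channel of the retina, a centrosomal protein, a kelch-repeat protein, a subunit of a vesicle coat, a dehydrogenase, a protein of hearing and a sterol hydroxylase of the brain.

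Each library held between 11733163 and 16321391 counted fragments. In its own knockdown the targeted transcript was lower by edgeR's quasi-likelihood test, with log2 fold changes of -1.36 for NAE1, -3.98 for UBE2M and -1.80 for URM1. The HEK293T markers PAX2, LHX1, EYA1, NEFM and VIM had counts in every library, but their levels differed between groups, with mean CPM from 44.7% of the control (EYA1 in siURM1) to 228% (NEFM in siNAE1 and siURM1), and the part of this in the results was not tested. Of the markers of other cells, RPE65 (retinal pigment epithelium) was at 0 in all 11 libraries, RLBP1 (the same tissue) had 0 to 4 counts, PTPRC (blood) 0 to 3, ALB (liver) 0 to 9 and GFAP (astrocytes) 19 to 45. Bulk RNA cannot tell fewer cells that express a gene from less RNA per cell.

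KLHDC7B, a kelch-domain gene on chromosome 22 (GRCh38, 50545891 to 50551023, plus strand), differed most. It had 96, 72 and 76 counts in the 3 control libraries. The siNAE1 libraries had 0, 2 and 3 counts, the siUBE2M libraries 3, 5 and 1, and the siURM1 libraries 3 and 0. All 8 knockdown libraries therefore lay below all 3 controls. The summed counts were 38.6-fold lower in siNAE1 (95% exact counting interval 16.3 to 120), 24.0-fold lower in siUBE2M (12.4 to 53.1) and 50.9-fold lower in siURM1 (17.2 to 249.0), and these intervals cover counting error only. With so few fragments the fitted log2 fold change moved with single libraries: in siURM1 it was -5.55 ± 0.63 (SE), -4.68 without replicate 2, and -9.18 without replicate 1, where the remaining library has 0 counts and the value depends on the prior count of the fit. The siNAE1 value of -5.17 ± 0.53 ranged from -5.94 to -4.61 when 1 library was left out, and the siUBE2M value of -4.53 ± 0.47 from -5.03 to -4.13. With a larger prior count of 2 in the fit, the values were nearer 0, at -4.27 in siNAE1, -3.90 in siUBE2M and -4.45 in siURM1. By its weakest change over the 3 knockdowns, KLHDC7B ranked first of 18368 genes.

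The sequence before the start of KLHDC7B is shown because it held a match, the one among the windows searched, 1 for each of 5 genes with a promoter in the RefSeq table (AKNA, KLHDC7B, COPZ2, DHRS2 and PJVK), to the core of the amino acid response element, the site bound by ATF4 and its partners in the amino acid and integrated stress response. For each gene printed, the 250 bases before the RefSeq start are shown, and the search also covered the 50 bases after it. The part shown, chr22:50545649-50545898 of GRCh38.p14, plus strand, ends 8 bases inside the gene as deposited. Capitals mark the element's core (at -151 to -144) and the half-site of the cAMP response element, both on the minus strand.
KLHDC7B: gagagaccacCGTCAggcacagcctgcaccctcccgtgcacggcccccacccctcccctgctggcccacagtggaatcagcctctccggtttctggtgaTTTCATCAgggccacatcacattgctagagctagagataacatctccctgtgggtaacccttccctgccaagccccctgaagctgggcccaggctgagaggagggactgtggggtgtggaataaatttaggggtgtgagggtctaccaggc
The core (TGATGNAA, either strand) was present in 3.62% of the 35116 RefSeq promoters, each searched over 300 bases, and the half-site (TGACG) in 24.6%. A match describes letters only, and binding was not measured.

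BEST1, which encodes bestrophin-1, a calcium-activated chloride channel of the retinal pigment epithelium, lies on chromosome 11 (61949821 to 61965515, plus strand). Its counts were 602, 494 and 487 in the control libraries. They were 19, 29 and 22 in siNAE1, 75, 98 and 72 in siUBE2M, and 53 and 51 in siURM1. No library of one group reached the range of another in normalised counts, with siNAE1 lowest, siURM1 next and siUBE2M the highest of the knockdowns. Per length, the level was 3.61 ± 0.354 FPKM (SD, n = 3) in the control, 0.201 ± 0.0345 in siNAE1, 0.627 ± 0.0744 in siUBE2M and 0.38 ± 0.0179 in siURM1 (n = 2). The log2 fold change was -4.15 ± 0.16 (SE), -2.51 ± 0.13 and -3.25 ± 0.17, respectively, which leaves 5.6%, 17.4% and 10.5% of the control level. RPE65, another gene of the tissue BEST1 is known for, had no counts in any library.

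BEST1 overlaps FTH1, the ferritin heavy chain gene on the opposite strand, by 5798 bases, and in GENCODE v44 1267 bases are exonic in both genes (14.6% of the exonic bases of BEST1). The libraries kept strand, but the strand setting of the counting is not given in the sources used here, so fragments of this overlap may be shared. FTH1 had 3193 to 5321 counts in all libraries, and its log2 fold changes were -0.10, -0.13 and 0.18, with no call in any knockdown.

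AKNA, an AT-hook gene first described as a transcription factor and later as a centrosomal protein that organises microtubules at the subdistal appendages, had the highest level of the 7 genes per length, 8.17 ± 0.544 FPKM in the control. It lies on chromosome 9 (114334156 to 114394405, minus strand). The control libraries had 1563, 1339 and 1352 counts. The knockdowns had 115, 91 and 102 counts in siNAE1, 183, 153 and 140 in siUBE2M, and 197 and 159 in siURM1. All knockdown libraries were far below the control, and those of siNAE1 were below those of siUBE2M and siURM1. The log2 fold changes were -3.44 ± 0.12, -2.98 ± 0.11 and -2.90 ± 0.13 (SE), so the level in the knockdowns was 9.29%, 12.7% and 13.3% of the control. AKNA rests on the most fragments of the 7, and with any 1 library left out the values ranged from -3.53 to -3.28, from -3.13 to -2.90 and from -2.98 to -2.82, respectively. The promoter at the start nearest its deposited 5′ end, chr9:114394406-114394655 of GRCh38.p14, minus strand, is shown as the one of the 5 searched without a match to any of the 10 motifs. The table lists 2 starts for AKNA and 3 for PJVK, and 1 window per gene was searched, so nothing is said of the other starts.
AKNA: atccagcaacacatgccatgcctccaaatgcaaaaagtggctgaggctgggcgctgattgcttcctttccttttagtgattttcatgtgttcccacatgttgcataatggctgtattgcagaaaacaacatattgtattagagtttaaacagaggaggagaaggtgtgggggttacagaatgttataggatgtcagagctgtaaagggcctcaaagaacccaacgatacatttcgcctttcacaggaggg
Those motifs were the amino acid response element core, the cAMP response element (TGACGTCA) and its half-site, the unfolded protein response element (TGACGTGG), the ER stress response element, the CCAAT box, the E-box (CACGTG), the antioxidant response element core (TGACNNNGC), the heat shock element and the TATA box (TATAAA), each on both strands. The half-site lies within the full cAMP element and the unfolded protein response element, and the CCAAT box within the ER stress element. COPZ2 held an antioxidant response element core, present in 13.3% of all promoters, and PJVK a CCAAT box, present in 34.6%.

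COPZ2 encodes a zeta subunit of COPI, the coat of vesicles that return from the Golgi to the endoplasmic reticulum, and hosts the microRNA gene MIR152, which was at 0 counts in all libraries. The libraries were made from polyadenylated RNA, so nothing is read about the mature microRNA from this. COPZ2 lies on chromosome 17 (48026167 to 48038030, minus strand). Its counts were 48, 46 and 28 in the control. They were 1, 1 and 3 in siNAE1, 5, 11 and 8 in siUBE2M, and 5 and 7 in siURM1. The controls lay above every knockdown library, and the siNAE1 libraries below all the others. The summed counts were 19.3-fold lower in siNAE1 (95% exact counting interval 8.04 to 60.5), 4.50-fold lower in siUBE2M (2.89 to 7.29) and 6.36-fold lower in siURM1 (3.51 to 12.7). The fitted siNAE1 log2 fold change of -4.17 ± 0.58 (SE) was -4.94 without siNAE1 replicate 3, which held 3 of its 5 counts, and -3.30 with a prior count of 2. In siUBE2M and siURM1 it was -2.15 ± 0.44 and -2.64 ± 0.54. The coat's other zeta subunit, COPZ1, was much more abundant (57.8 ± 2.22 FPKM in the control, against 1.34 ± 0.338 for COPZ2) and was not called, at -0.24, -0.22 and -0.05. In siNAE1 and siUBE2M COPZ1 was lower, but under the 2-fold threshold (adjusted p = 8.6e-04 and 0.0029, edgeR).

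DHRS2, a short-chain dehydrogenase that reduces dicarbonyl compounds with NADPH, lies on chromosome 14 (23630115 to 23645639, plus strand). The control libraries had 169, 167 and 157 counts. The siNAE1 libraries had 36, 25 and 21, the siUBE2M libraries 26, 13 and 18, and the siURM1 libraries 52 and 48. Here the order of the knockdowns differed from that of BEST1: siUBE2M had the lowest mean and siURM1 the highest, with siNAE1 between them and overlapping siUBE2M. The level was 1.33 ± 0.0264 FPKM in the control and 0.278 ± 0.0723, 0.176 ± 0.0703 and 0.431 ± 0.00765 in siNAE1, siUBE2M and siURM1. The log2 fold changes were -2.24 ± 0.22, -2.92 ± 0.24 and -1.62 ± 0.24 (SE). The promoter, chr14:23629865-23630114 of GRCh38.p14, plus strand, is shown because it alone of the 5 held a TATA box, in capitals, at -29 to -24, the usual place of this element; 11.5% of all promoters in the table held the 6 letters.
DHRS2: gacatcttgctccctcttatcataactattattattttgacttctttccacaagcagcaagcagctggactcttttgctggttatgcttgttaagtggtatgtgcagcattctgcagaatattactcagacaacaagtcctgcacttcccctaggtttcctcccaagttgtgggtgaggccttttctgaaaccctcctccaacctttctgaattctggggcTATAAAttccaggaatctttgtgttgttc

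PJVK encodes pejvakin, a member of the gasdermin family that is needed for hearing, and lies on chromosome 2 (178451346 to 178461409, plus strand). Its counts were 210, 218 and 225 in the control. They were 32, 61 and 42 in siNAE1, 75, 69 and 57 in siUBE2M, and 64 and 45 in siURM1. All knockdown libraries lay below the control range, and those of siNAE1 overlapped both of the other knockdown groups. On average 26.0%, 34.9% and 26.5% of the control level was left. In FPKM the level was 3.51 ± 0.21 in the control, 0.911 ± 0.243 in siNAE1, 1.22 ± 0.201 in siUBE2M and 0.931 ± 0.162 in siURM1, and the log2 fold changes were -1.94 ± 0.18, -1.52 ± 0.17 and -1.91 ± 0.21 (SE). PRKRA, which encodes an activator of the kinase PKR and overlaps PJVK by 167 bases on the opposite strand, was not called, at -0.22, -0.41 and -0.10. In siNAE1 and siUBE2M PRKRA was lower, but under the 2-fold threshold (adjusted p = 0.012 and 3.2e-05, edgeR).

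CYP46A1, cholesterol 24-hydroxylase, the enzyme by which the brain disposes of cholesterol, was the weakest case. It lies on chromosome 14 (99684304 to 99727301, plus strand), and its control level of 0.122 ± 0.0308 FPKM was the lowest of the 7. The control libraries had 17, 24 and 15 counts. The knockdowns had 3, 4 and 4 counts in siNAE1, 7, 6 and 8 in siUBE2M, and 7 and 2 in siURM1. No knockdown library reached the control range, but the siURM1 libraries lay on both sides of the siNAE1 group. The summed counts were 4.02-fold lower in siNAE1 (95% exact counting interval 2.09 to 8.52), 2.36-fold lower in siUBE2M (1.41 to 4.10) and 3.89-fold lower in siURM1 (1.91 to 8.96). The log2 fold changes were -1.97 ± 0.56, -1.22 ± 0.50 and -1.94 ± 0.62 (SE), and the siURM1 value was -2.97 without siURM1 replicate 1 and -1.38 without replicate 2.

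**Figure D1:**
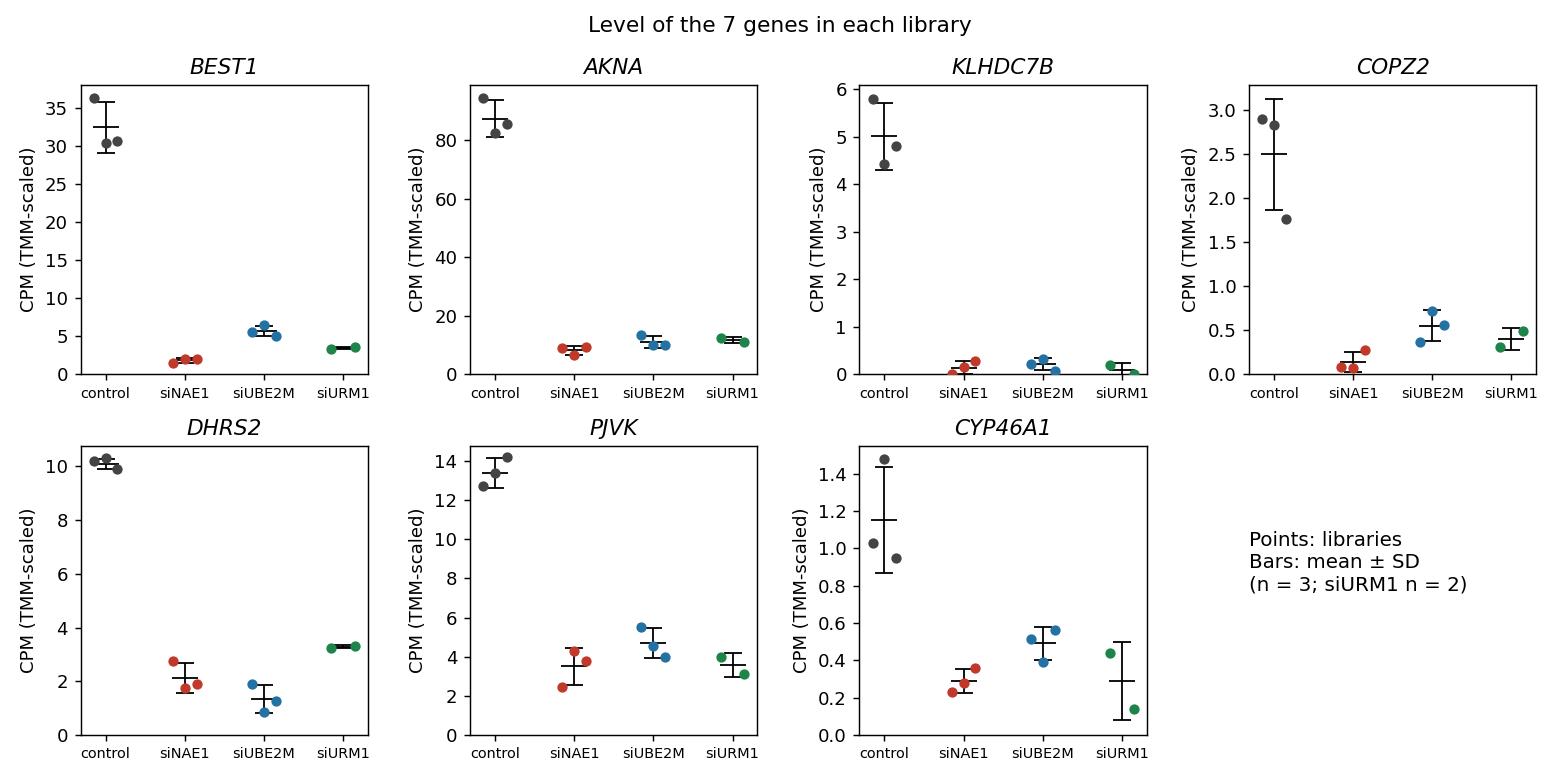
Normalised counts (CPM, counts scaled to library size with TMM) of the 7 genes in each library, on linear axes from 0, with points for libraries and bars for the mean ± SD (n = 3, and n = 2 for siURM1). In every panel the 3 control libraries lie above all 8 knockdown libraries, as they did for 13.3% of all tested genes, and nothing is read from this since the genes were chosen on these falls; all 4 groups separate in BEST1 alone of the 7, and in 8.1% of all tested genes.

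All 7 genes met the calling rule of an adjusted p under 0.05 and a change of at least 2-fold, lower, in all 3 knockdowns. Over all tested genes that rule called 8.61% lower in siNAE1, 3.89% in siUBE2M and 4.73% in siURM1, and since the genes were chosen on these contrasts nothing is read from the count. The comparisons also share the 3 control libraries. KLHDC7B and CYP46A1 passed the filter on low counts through the control libraries alone, and COPZ2 through these and 1 siUBE2M library, so a difference was built into their passing; the other 4 passed it in all 11 libraries. The call of CYP46A1 in siUBE2M was lost in 11 of 16 alternative analyses, among them 8 of the 11 that each left out 1 library. Not every call in siURM1 held either: without control replicate 2, 6 of the 7 genes were called there. Ranked by the weakest change over the knockdowns among 18368 genes, the order was KLHDC7B (1), AKNA (4), BEST1 (7), COPZ2 (21), DHRS2 (73), PJVK (100) and CYP46A1 (196) from the lowest, which describes the choice of the genes. On log2(FPKM + 1), where the pseudocount compresses low values, the differences from control were smaller for all 7 genes: in siNAE1 -1.94 for BEST1, -2.39 for AKNA, -0.94 for KLHDC7B, -1.11 for COPZ2, -0.87 for DHRS2, -1.25 for PJVK and -0.12 for CYP46A1. In all, 255 genes were called lower in all 3 knockdowns.

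**Figure D2:**
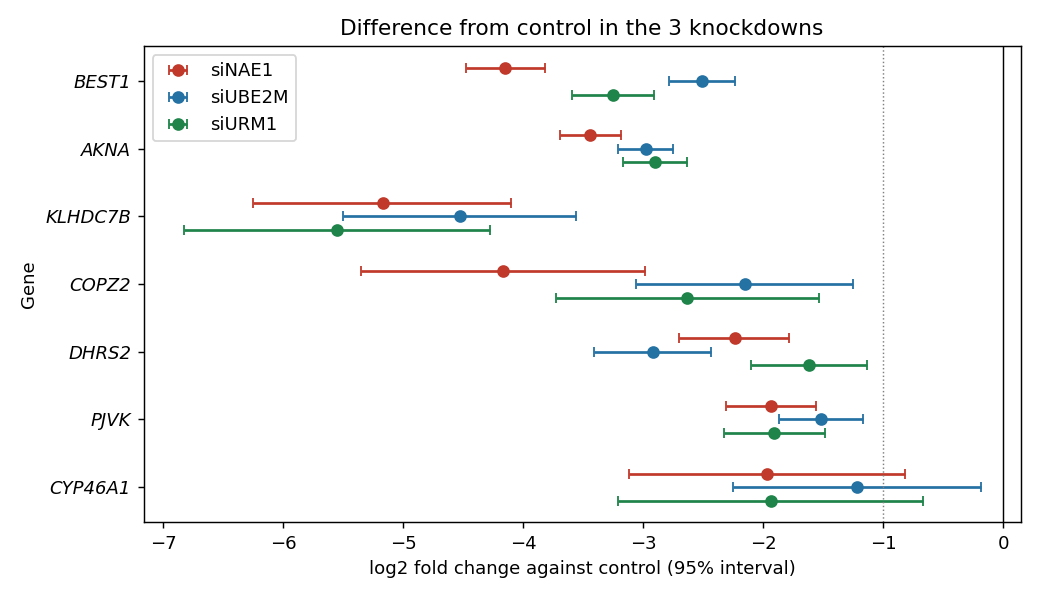
Log2 fold change against the control (horizontal axis) of the 7 genes in siNAE1, siUBE2M and siURM1, with 95% intervals of the edgeR fit; the dotted line marks a 2-fold lower level. The intervals of KLHDC7B, COPZ2 and CYP46A1, which rest on few counts, are the widest, and those of AKNA the narrowest.

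The knockdowns were next compared with each other, to ask whether the levels of the 7 genes differed between the knockdowns. The control was not part of these contrasts, but the same knockdown libraries had entered the choice of the genes. BEST1 was lower in siNAE1 than in siUBE2M by a log2 fold change of -1.64 ± 0.20 (SE, adjusted p = 3.3e-08, edgeR), and their libraries did not overlap. It was also lower in siNAE1 than in siURM1 (-0.91 ± 0.23, adjusted p = 0.0022) and higher in siUBE2M than in siURM1 (0.73 ± 0.19, adjusted p = 0.0029), though both of these were less than 2-fold. COPZ2 was lower in siNAE1 than in siUBE2M (-2.01 ± 0.70, adjusted p = 0.019), a difference between 5 and 24 summed counts that missed the threshold without siNAE1 replicate 1 or 2 or siUBE2M replicate 2, at adjusted p = 0.070, 0.081 and 0.076, and the fitted size was -1.37 with a prior count of 2. DHRS2 was lower in siUBE2M than in siURM1 (-1.30 ± 0.29, adjusted p = 6.5e-04), and this held with any library left out (-1.64 to -1.05).

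AKNA differed by less than 2-fold, at -0.46 ± 0.14 between siNAE1 and siUBE2M (adjusted p = 0.0081) and -0.54 ± 0.15 between siNAE1 and siURM1 (adjusted p = 0.0057). The first missed the threshold without siNAE1 replicate 2 or siUBE2M replicate 1 (adjusted p = 0.11 and 0.095), and the second without siNAE1 replicate 2 or siURM1 replicate 1 (adjusted p = 0.066 and 0.080). Between siUBE2M and siURM1 its difference was -0.08 (95% interval -0.37 to 0.22, adjusted p = 0.73), an interval that holds no 2-fold difference. For PJVK no pair passed, and all 3 intervals stayed under 2-fold: -0.83 to 0.00 for siNAE1 against siUBE2M, -0.51 to 0.45 for siNAE1 against siURM1 and -0.07 to 0.85 for siUBE2M against siURM1. KLHDC7B and CYP46A1 passed in no pair either, but at this depth the intervals were wide. Between siNAE1 and siURM1 they include 2-fold differences in both directions, from -1.86 to 2.62 for KLHDC7B and from -1.55 to 1.49 for CYP46A1.

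By the full rule (adjusted p under 0.05 and at least 2-fold), 2 of the 7 genes were called between siNAE1 and siUBE2M, where 7.84% of all genes were. Between siUBE2M and siURM1 it was 1 of 7, against 5.41%. Between siNAE1 and siURM1 edgeR called 0 of 7, against 6.76%; 2 of the 7 passed on the adjusted p alone, against 38.6% of all genes, and 3 at an unadjusted p under 0.05, against 46.2%, and DESeq2 also called 0.

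Relatives of each gene were then examined, with 62 genes in 7 lists, of which 41 were tested. In siNAE1 4 were called lower, in siUBE2M 1 and in siURM1 2, which is 9.76%, 2.44% and 4.88% of those tested and near the 8.61%, 3.89% and 4.73% of all genes. Called higher were 0 in each knockdown by edgeR and by DESeq2, where edgeR called 5.3%, 3.22% and 2.89% of all genes; at an unadjusted p under 0.05, 12, 15 and 15 of the 41 were higher, against 29.6%, 26.0% and 24.2% of all genes. These counts of 0 rest on relatives just under 2-fold: ANO7 in siNAE1 (0.96), NIN in siUBE2M (0.97) and CYP51A1 in siUBE2M and siURM1 (0.89 and 0.98) were called higher with some single libraries left out, at 1.02 to 1.18. The median log2 fold change of the 41 was -0.02, 0.03 and 0.01, close to that of all genes (-0.00, 0.01 and -0.02).

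KLHDC1, which like several kelch-domain proteins brings substrates to a cullin ubiquitin ligase, was the one relative called in all 3 knockdowns. Its counts were 35, 48 and 40 in the control, 7, 2 and 1 in siNAE1, 9, 19 and 9 in siUBE2M, and 8 and 18 in siURM1. It was lower by -3.24 ± 0.52 (SE, adjusted p = 3.6e-06), -1.56 ± 0.42 (adjusted p = 0.0030) and -1.54 ± 0.48 (adjusted p = 0.0098) on the log2 scale, and the last was lost without siURM1 replicate 1 (-1.01, adjusted p = 0.19). Of the 6 tested relatives of KLHDC7B, the other 5 were not called in any knockdown. Among the subdistal appendage genes related to AKNA, CNTRL, encoding centriolin, was called in siNAE1 (-1.16 ± 0.10, adjusted p = 1.2e-11). In siURM1 it was -0.82 (adjusted p = 1.8e-07), under the 2-fold threshold, and in siUBE2M 0.03. The direct contrast of siNAE1 with siUBE2M passed (-1.19 ± 0.10, adjusted p = 1.8e-11), and that with siURM1 did not reach 2-fold (-0.34, adjusted p = 0.019).

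DHRS12, of the same dehydrogenase group as DHRS2, was lower in siNAE1 (-1.50 ± 0.22, adjusted p = 9.2e-07) and siURM1 (-1.09 ± 0.24, adjusted p = 3.8e-04), and in siUBE2M it was -0.83, under the 2-fold threshold. Its siURM1 value fell short of 2-fold without control replicate 1 (-0.95) or siURM1 replicate 2 (-0.89). CYP27A1, the mitochondrial sterol 27-hydroxylase, was lower in siNAE1 (-1.55 ± 0.43, adjusted p = 0.0027) and not called in siUBE2M (-0.26) or siURM1 (-0.33). None of the 8 other COPI subunits, of the 6 tested anoctamins or of the 2 tested gasdermins was called in any knockdown with all libraries, and no bestrophin other than BEST1 passed the filter on low counts. The COPI subunits ranged only from -0.50 to 0.40 over the 3 knockdowns.

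The genes beside or across each of the 7 on the chromosome were compared as well, 16 of them tested. Of these, 4 of 16 were called lower in siNAE1, 0 in siUBE2M and 3 in siURM1, where 8.61%, 3.89% and 4.73% of all genes were. Called higher were 0 in each, where 5.3%, 3.22% and 2.89% of all genes were, and edgeR and DESeq2 gave the same counts. At an unadjusted p under 0.05, 9, 7 and 6 were lower, against 29.4%, 25.6% and 24.6% of all genes, and 1, 1 and 1 higher, against 29.6%, 26.0% and 24.2%. In siUBE2M the neighbours' log2 fold changes ran from -0.85 to 1.16, the upper end being AP003733.4, which had at most 9 counts in any library. In siNAE1 the 4 were COL27A1, a fibrillar collagen gene next to AKNA (-1.29), DHRS4-AS1 (-1.28) and AL135999.1 (-1.18), which lie 293091 and 62041 bases from DHRS2, and AC009948.1, 11102 bases from PJVK (-1.49). In siURM1 they were AC009948.1 (-1.08), CPT1B, a mitochondrial carnitine palmitoyltransferase gene beside KLHDC7B (-1.05), and AC004477.1 beside COPZ2 (-1.31). The call of AL135999.1 was lost without control replicate 1 or siNAE1 replicate 3 (-0.90 and -0.91), that of CPT1B without control replicate 1 or siURM1 replicate 1 (-0.97 and -0.88), and that of AC009948.1 in siURM1 without siURM1 replicate 1 (-0.98). CPT1B was called in siNAE1 as well without siNAE1 replicate 3 (-1.16). DHRS4-AS1 is an antisense gene. Without the strand setting, fragments from any exonic bases it shares with its partner may be shared, and that overlap was not measured. Neither neighbour of CYP46A1 (CCDC85C and EML1) and none of the 3 of BEST1 was called in any knockdown.

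Finally, the genes with the most similar pattern over the 11 libraries were listed, by Pearson's correlation of log2 CPM among tested genes averaging 1 CPM or more. These correlations are descriptions, since the genes share the 11 libraries, and the libraries include the control-to-knockdown difference that chose the 7 genes. For BEST1 the nearest was RAPGEF3, a cAMP-activated exchange factor (r = 0.997), which shared its order of groups: its level was 4.19 ± 0.512 FPKM in the control, 0.401 ± 0.0493 in siNAE1, 0.886 ± 0.0711 in siUBE2M and 0.655 ± 0.000913 in siURM1. AHRR, the repressor of the aryl hydrocarbon receptor (0.991), and WARS, the tryptophanyl-tRNA synthetase (0.987), followed.

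For AKNA the nearest were CTH, which makes cysteine from cystathionine (0.992), STC2, a secreted glycoprotein hormone (0.987), and ATF3, a stress-induced transcription factor (0.984). CTH stood at 77.8 ± 0.989 FPKM in the control, and 21.4%, 25.8% and 24.6% of its control level was left in siNAE1, siUBE2M and siURM1. SIRT5, a mitochondrial deacylase, was nearest to both KLHDC7B (0.988) and PJVK (0.981), at 55.4%, 60.0% and 57.5% of its control level. KLHDC7B itself was the third nearest gene to PJVK (0.976). For KLHDC7B, FUZ (0.986) and POLD2 (0.981) came next, and for PJVK, UFSP2 (0.979). The nearest to COPZ2 were MPV17 (0.983), AC007114.1 (0.982) and PABPC1L (0.981), to DHRS2 FTSJ1 (0.973), AL662795.2 (0.971) and KHDRBS3 (0.968), and to CYP46A1 GATA3 (0.970), STX18 (0.952) and DOK1 (0.947).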

How the data were processed

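Polyadenylated RNA from 11 HEK293T libraries was sequenced by the authors as paired reads of 150 bases, with strand kept by dUTP. Per the labels, reads were trimmed with fastp, aligned to GRCh38 with HISAT2 2.0.5 and counted with featureCounts 1.5.0-p3, and the counts they deposited are raw whole numbers. The deposited FPKM were computed by the authors from these counts. The annotation version is not given in the sources used here. Fold changes and tests were computed from the counts in edgeR 4.0.16 (R 4.3.3): filterByExpr, TMM scaling and one quasi-likelihood fit of 4 groups over 18368 genes, with Benjamini-Hochberg adjustment over all of them, two-sided. Genes were called at an adjusted p under 0.05 and a log2 fold change of at least 1 in size. Fitted fold changes used a prior count of 0.125, and log2 CPM a prior count of 2. The scripts were tested on simulated data. Exact intervals of count ratios were conditional binomial, at 95%.

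The 7 genes and all gene lists were chosen with earlier results of these data known. The genes named are these 7, the relatives called in a knockdown, COPZ1, overlapping genes with at least 10 counts and the nearest tested genes on each side, the 3 most correlated genes of each, and the targeted genes; MIR152, ANO7, NIN and CYP51A1 were named after their values were seen. One marker of the cell line is not reported here. Promoters (250 bases before and 50 after the start) were RefSeq's, on GRCh38.p14, and 5 of the 7 genes matched. Alternatives were RLE scaling, other filters, DESeq2 1.42.0, 2 groups per fit, a replicate block, no fold threshold, a prior count of 2, log2 FPKM with pseudocounts of 1 and 0.1, and each library left out. Python 3.11.15 with pandas 2.3.3 made the tables, and matplotlib 3.10.9 the figures.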

Additional observations from a re-analysis of the deposited data

How the results depend on the processing

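With at least 10 counts in every library, 4 of the 7 genes could be tested; all 4 were called in siNAE1, siUBE2M and siURM1, and 1 was called between siNAE1 and siUBE2M. Under that filter 2, 0 and 1 relatives were called in siNAE1, siUBE2M and siURM1. A fit of only the 2 groups compared tested 4 of the 7 between siNAE1 and siUBE2M and called 1; COPZ2 did not pass the low-count filter there. Without a fold threshold siURM1 differed from siNAE1 in 2 of the 7 genes and from siUBE2M in 2, against 38.6% and 35.0% of all genes, and 27, 22 and 20 of the 41 relatives were called in siNAE1, siUBE2M and siURM1, against 54.7%, 45.3% and 41.6%. The smaller counts follow from fewer genes tested, and the larger ones from the looser rule.

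Leaving out 1 library gave 1 to 3 of the 7 called between siNAE1 and siUBE2M (3 without siUBE2M replicate 1, where DHRS2 was called at 1.01), 0 to 1 between siNAE1 and siURM1 (BEST1, without siNAE1 replicate 2), 1 to 3 relatives in siUBE2M (3 without control replicate 3 or siUBE2M replicate 3) and 1 to 3 in siURM1 (1 without siURM1 replicate 1, 3 without control replicate 3), with calls in both directions counted. Direction turned only in differences between knockdowns that had not passed: left-out libraries gave -0.24 to 0.01 for AKNA between siUBE2M and siURM1, and between siNAE1 and siURM1 -0.50 to 4.01 for KLHDC7B, -0.21 to 0.18 for PJVK and -0.59 to 1.00 for CYP46A1. The last was 0.00 on log2(FPKM + 1) and 0.01 on log2(FPKM + 0.1).

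Samples with the same replicate number did not deviate together (r from -0.066 to 0.079 over 15 pairs). A fit with the replicate block called 7, 6 and 7 of the genes in siNAE1, siUBE2M and siURM1 against the control, where CYP46A1 was the one lost. Depth limits KLHDC7B, COPZ2 and CYP46A1: their knockdown libraries hold 0 to 11 counts. On log2(FPKM + 1) the pseudocount shrank the differences from control of all 7 genes towards 0 (BEST1 in siURM1 to -1.74).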
